A study of Homo sapiens with 5 samples.

Results

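FOXB1 sites on human chromosome 19 were taken from chromatin immunoprecipitation sequencing (ChIP-seq) of pre-neural crest cells. A site was a peak of either wild-type (WT) list, or overlapping peaks of both lists merged into 1. Sites were kept if the input library had 3 or fewer tags in every peak window of the site, where a tag is an aligned read. This left 299 of the 301 sites of chromosome 19, out of 5334 sites within the same limit on all chromosomes and 5578 sites in all. Positions are in hg19, in which the chromosome is 59.1 Mb long.

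WA01, an embryonic stem cell line in long use, was the source of all cells, which were taken on day 3 of differentiation. The medium held CHIR 99021, a GSK3 inhibitor, and at first also the ROCK inhibitor Y-27632. There were 2 WT libraries, 2 libraries of a FOXB1 dgRNA-KO line and 1 input library of WT cells made with no antibody. In the KO line CRISPR/Cas9 had removed the FOXB1 sequence that encodes the DNA-binding domain. The KO libraries came from 1 edited line, and the labels do not say whether it is a single clone. The input is labelled day 3, but the name of its tag directory carries 2 day labels, so it cannot be tied to day 3 alone. The 2 WT libraries held 19091152 and 22637495 tags, with estimated fragment lengths of 182 and 134 bp, and their tag thresholds of 16 and 17 tags correspond to 8.38 and 7.51 tags per 10000000. Nothing in the labels says that replicates were separate cultures, so the spread between libraries may be technical.

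FOXB1 belongs to the forkhead family, transcription factors whose winged-helix domain binds DNA. Chromosome 19 is known for its high density of genes and GC-rich sequence, and for large tandem clusters of genes of the KRAB zinc finger family. These proteins are repressors that silence, among other targets, mobile elements, and their clusters are known to carry heterochromatin marks over the zinc finger exons. In the RefSeq gene table of GRCh38.p14, 250 of 517 protein-coding genes with a numbered ZNF symbol (48.4%) lie on chromosome 19, against 7.23% of all protein-coding genes. That assembly differs from the one of the peaks, so sites were not assigned to genes, and no sequence of a site was read. The zinc finger gene stretches used below are 19.8 to 24.4 Mb, 52.0 to 54.0 Mb and 56.0 to 59.1 Mb, 9.70 Mb together. Their borders were not checked against an hg19 gene annotation. The rest of the chromosome may hold zinc finger genes too, so the comparison is between these stretches and all other sequence.

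The first comparison was between genotypes. The 2 WT lists held 138 and 244 peaks with 3 or fewer input tags on chromosome 19, a mean of 191 ± 75 (SD, n = 2), and both KO lists held 0. Both WT libraries were therefore above both KO libraries. An exact permutation test over the 4 libraries, two-sided, gave p = 0.333, and a design of 2 against 2 allows nothing smaller. The KO lists had only 23 peaks in all. With 3 peaks taken as the upper limit of a count of 0, they allow a share on chromosome 19 of up to 13%. This limit is a rule of thumb and not an exact interval. The share in the WT lists was 4.98% (385 of 7736 peaks), so a lower share in KO was not detectable at that number of peaks.

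Chromosome 19 held 5.06 sites per Mb (exact Poisson 95% interval 4.50 to 5.66), and the other 21 autosomes together held 4982 sites, or 1.77 per Mb (1.72 to 1.82). The ratio of densities was 2.86 (exact 95% interval 2.54 to 3.22). With each list taken alone, the ratio was 2.16 (1.81 to 2.57) for the first WT library and 2.96 (2.59 to 3.37) for the second, a mean of 2.56 ± 0.561 (SD, n = 2). Chromosome 19 thus had the denser sites in each library, and the excess was larger in WT replicate 2. These and the later intervals cover counting error only. The chromosome was chosen with its high density known, so the ratio is a description.

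The size of the excess differed between kinds of sites. Sites found in both WT lists were 2.03 times as dense on chromosome 19 as on the other autosomes (1.61 to 2.52), at 1.40 against 0.693 per Mb. Sites of WT replicate 1 alone were 2.48 times as dense (1.85 to 3.25). Sites of WT replicate 2 alone were 3.91 times as dense (3.31 to 4.59), and the interval of this last ratio does not meet either of the others. Sites found in both lists gave the lowest of the 3 ratios, with an interval that overlaps that of WT replicate 1 alone.

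Set against gene number, the order changed. Chromosome 19 has 1451 protein-coding genes in the GRCh38.p14 table, or 24.5 per Mb of hg19 length, against 6.26 per Mb on the other autosomes. Per 100 protein-coding genes it held 20.6 sites, and the other autosomes held 28.2, a ratio of 0.731 (exact 95% interval 0.648 to 0.822). It ranked 1st of 22 autosomes in sites per Mb, but only chromosome 17 with 20.4 and chromosome 11 with 18.5 had fewer sites per 100 genes. Across the 22 autosomes the site density and the gene density had a Pearson's r of 0.92 and a Spearman's rho of 0.66. Without chromosome 19 these were 0.75 and 0.61 over 21 chromosomes. All points come from the same 2 libraries, so these coefficients are descriptions and carry no p.

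**Figure D1:**
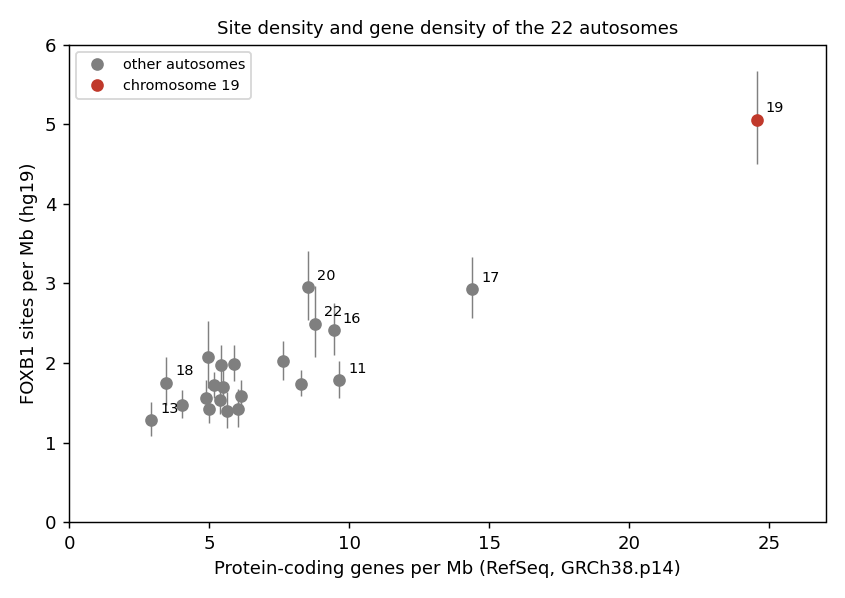
FOXB1 sites per Mb (vertical axis, with exact Poisson 95% intervals) against protein-coding genes per Mb (horizontal axis), 1 point for each of the 22 autosomes. Chromosome 19, in red, lies at 5.06 sites and 24.5 genes per Mb, above and to the right of all other autosomes, with chromosome 20 (2.95 sites per Mb) and chromosome 17 (2.93) next in site density.

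Along chromosome 19 the sites were spread unevenly. The band p13.3, at the end of the short arm, held 80 sites in 6.90 Mb, or 11.6 per Mb (9.19 to 14.4). The rest of the chromosome held 4.19 per Mb, so p13.3 was 2.77 times as dense (2.11 to 3.59). Both libraries showed this, with ratios of 2.47 (1.63 to 3.68) for the first and 2.98 (2.23 to 3.97) for the second. This band was singled out after its values had been seen. Without it, chromosome 19 was still 2.38 times as dense as the other autosomes (2.06 to 2.72).

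After p13.3, and leaving out bands under 1 Mb, the densest bands were q13.32 with 22 sites (7.86 per Mb, 4.92 to 11.9), q13.42 with 20 (7.41 per Mb, 4.52 to 11.4) and p13.11 with 27 (7.30 per Mb, 4.81 to 10.6). Their intervals overlap widely, so no order among these 3 can be read. Below them stood p13.2 with 37 sites (5.29 per Mb) and p13.12 with 12 (5.22 per Mb). The other long-arm bands from q12 to q13.41, again leaving out bands under 1 Mb, lay between 3.33 per Mb in q13.31 and 3.93 per Mb in q13.12. The sparsest bands outside the centromere were q13.43, at the end of the long arm, with 6 sites (2.12 per Mb, 0.778 to 4.62), and p12 with 10 (2.27 per Mb, 1.09 to 4.18). The 2 ends of the chromosome therefore differed, with intervals that do not meet. Band p12 lies inside the first zinc finger stretch and almost all of q13.43 inside the third. Their sites are therefore counted again in the zinc finger results below. The centromeric bands p11 and q11 held 1 site each. How much of these bands reads can align to was not measured, so their low density cannot be read as weak binding.

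**Figure D2:**
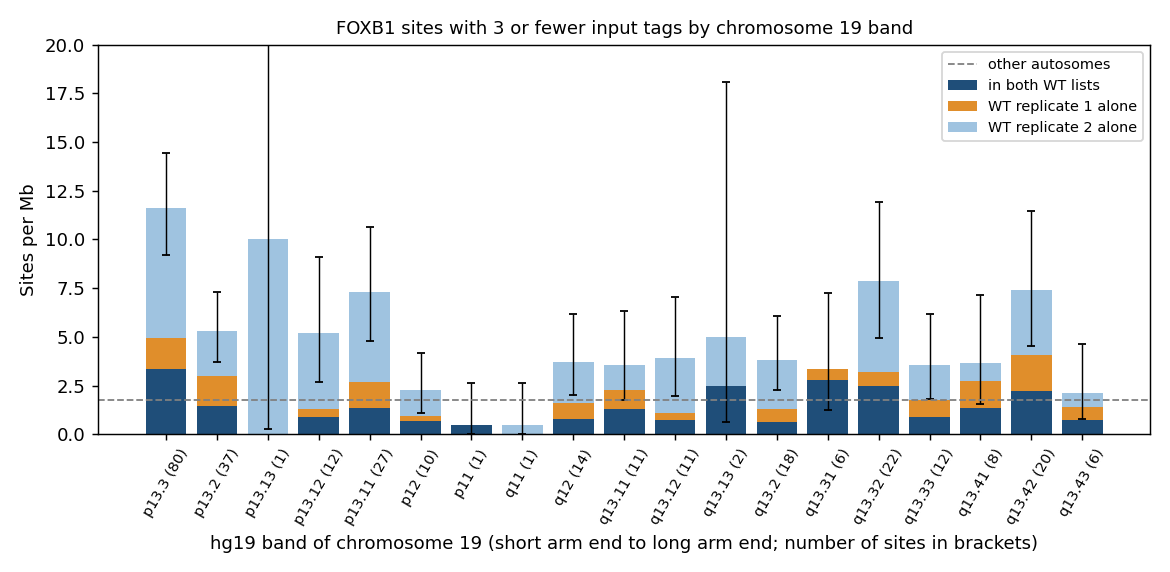
Sites per Mb in each hg19 band of chromosome 19, from the end of the short arm (left) to the end of the long arm (right), stacked by whether a site was in both WT lists or in 1 alone. Black lines are exact Poisson 95% intervals of the total (that of p13.13, with 1 site, runs past the axis) and the dashed line is the density of the other autosomes, 1.77 per Mb. The band p13.3 stands highest, at 11.6 per Mb, and p11 and q11 stand lowest, at 0.476 per Mb each.

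Giemsa staining gave a partly similar picture. Bands are stained dark where the DNA is compact and AT-rich, and light where it is gene-rich. The light bands (gneg) held 159 sites, or 7.19 per Mb, and the weakly stained bands (gpos25) held 114, or 4.63 per Mb, a ratio of 1.55 (1.21 to 1.99). Without p13.3, which is light, the ratio was 1.12 (0.832 to 1.51), so the difference rested on that band. The variable bands p12 and q12 (gvar) held 24 sites, or 2.93 per Mb, which was 0.632 times the weakly stained bands (0.389 to 0.989). The short arm held 6.84 sites per Mb and the long arm 4.26, both without the centromeric bands, a ratio of 1.61 (1.27 to 2.04). Without p13.3 this fell to 1.17 (0.879 to 1.54).

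In bins of 1 Mb the number of sites ranged from 0 to 21, with a median of 4 over 60 bins. The last bin, from 59 Mb, is cut short by the end of the chromosome at 59.1 Mb and held no site. The fullest bin, from 1 to 2 Mb, held 21 sites (exact Poisson 95% interval 13 to 32.1), of which 6 were in both lists. The bin from 0 to 1 Mb held 15, with 5 in both lists, and that from 4 to 5 Mb held 13, with 4 in both lists. All 3 lie in p13.3. The bins from 18 to 19 Mb and from 47 to 48 Mb held 12 each, of which 1 and 3 were in both lists. The interval of a bin with 12 sites, 6.20 to 21, includes most of the values above, so the order of these bins is not fixed by the counts. The 9 bins with 10 or more sites held 116 sites, 38.8% of all. At the other end, 5 bins held no site, 6 held 1 and 22 held no site found in both lists. The bins without a site included those from 25 to 28 Mb, in the centromeric bands.

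Most close pairs of sites lay in p13.3. The median gap between neighbouring sites was 101 kb over the chromosome, and 23 neighbouring pairs lay within 10 kb, 17 of them in p13.3. That band held 80 of the 299 sites at 2.77 times the density of the rest, so this count is not separate from its density. Some pairs, such as those starting at 1555301 and 1556370 (749 bp apart), join 1 peak of each list, which the merging counts as 2 sites. Of the 23 pairs, 3 joined sites that were both found in both lists. These were 1642015 to 1642405 with 1652125 to 1652445 (9720 bp apart) and 4065471 to 4065899 with 4067072 to 4067392 (1173 bp apart), all in p13.3. The other was 19368792 to 19369120 with 19372688 to 19373140 (3568 bp apart) in p13.11. The widest gap, 3774 kb, ran across the centromere from 24526344 to 28300739.

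The zinc finger gene stretches held fewer sites than the rest of the chromosome. They had 25 sites, or 2.58 per Mb (1.67 to 3.8), against 274 elsewhere on chromosome 19, or 5.54 per Mb (4.91 to 6.24). The ratio was 0.465 (exact 95% interval 0.296 to 0.701). It was 0.629 among sites with 1 or fewer input tags, with an interval (0.368 to 1.02) that includes 1, and 0.286 (0.103 to 0.643) among peaks with a height of 10 or more tags per 10000000. Both libraries gave a ratio below 1, with 0.530 (0.275 to 0.940) for the first list alone and 0.406 (0.236 to 0.656) for the second, a mean of 0.468 ± 0.0878 (SD, n = 2). With 2 libraries no exact test over libraries could pass a threshold of 0.05. Sites found in both lists gave 0.397 (0.141 to 0.904), from 6 against 77 sites. Without p13.3, the ratio was 0.565 (0.357 to 0.859), and without the centromeric bands it was 0.429 (0.272 to 0.646).

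The stretches were not sparser than the other autosomes. Their density was 1.46 times that of the other autosomes, with an interval (0.944 to 2.16) that includes 1, and the rest of chromosome 19 was 3.14 times as dense as the other autosomes (2.77 to 3.55). By library, the ratio for the stretches was 1.25 (0.667 to 2.15) and 1.34 (0.790 to 2.11). Of the 9 bins of 1 Mb centred in the stretches, the median held 2 sites and the fullest 6. The median of the other 51 bins, the short last bin included, was 5.

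The densities of the 3 stretches had wide intervals that overlapped. The stretch from 19.8 to 24.4 Mb, almost all of band p12, held 10 sites (2.17 per Mb, 1.04 to 4). The stretch from 52.0 to 54.0 Mb held 4 (2.00 per Mb, 0.545 to 5.12), and that from 56.0 to 59.1 Mb held 11 (3.55 per Mb, 1.77 to 6.35). In the first, WT replicates 1 and 2 had 4 and 9 peaks. In the second they had 2 and 2, none of them in both lists, and in the third 7 and 7. The bin just before the third stretch, from 55 to 56 Mb, held 11 sites, 5 of them in both lists, at 55185481, 55535473, 55691488, 55795459 and 55893264 by their starts. The counts depended on where the borders were set. With every border of all 3 stretches moved outward by 0.5 Mb the ratio to the rest of the chromosome was 0.662 (0.469 to 0.914), and moved inward it was 0.384 (0.207 to 0.656).

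The next comparison was of how often a site was found in both WT lists. On chromosome 19 this was 83 of 299 sites, 27.8% (exact Clopper-Pearson 95% interval 22.8 to 33.2%). Over all chromosomes the share was 38.4%, and on the other autosomes it was 39.3% (37.9 to 40.6%). The difference from the other autosomes was -11.5 percentage points (Newcombe 95% interval -16.5 to -6.00). Chromosome 22, at 25.8%, was the only autosome with a lower share, and its interval of 18.5 to 34.3% includes the value of chromosome 19. The share tended to be lower on autosomes with more genes per Mb. Over the 22 autosomes the share and the gene density had a Spearman's rho of -0.58, and without chromosome 19 it was -0.53. These coefficients are descriptions and carry no p.

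The deficit was larger for the peaks of WT replicate 2. Both shares on chromosome 19 count the same 83 sites, so the 2 deficits are not separate results. They are tied to each other by the ratios of peak numbers given below. Of the 138 WT replicate 1 peaks 60.1% (51.5 to 68.4%) were found in WT replicate 2, against 64.5% over all chromosomes, and the difference from the other autosomes was -4.71 points (-13.2 to 3.27). Of the 244 WT replicate 2 peaks 34.0% (28.1 to 40.3%) were found in WT replicate 1, against 48.7% over all chromosomes, with a difference of -15.9 points (-21.7 to -9.51). Chromosome 19 had 55 sites of WT replicate 1 alone and 161 of WT replicate 2 alone. The ratio of WT replicate 2 to WT replicate 1 peak numbers was 1.77 there and 1.30 on the other autosomes. Chromosome 21 had a higher ratio still, at 1.81. The libraries differed in depth and fragment length as given above, and the part of these in the difference was not tested.

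The shares were then set out by height class. Among WT replicate 2 peaks with a height of 10 to 12, where the height is the authors' normalized tag count in tags per 10000000, 36.7% (24.6 to 50.1%) of 60 peaks on chromosome 19 were found in WT replicate 1. On the other autosomes it was 65.4% (62.2 to 68.5%) of 890. Under a height of 10 the shares were 21.8% (15.4 to 29.3%) and 31.4% (29.5 to 33.4%), and at 12 or more they were 78.4% (61.8 to 90.2%) and 84.8% (82.1 to 87.2%). The share on chromosome 19 was the lower in all 3 classes, with intervals that met only in the tallest class, which had 37 peaks on chromosome 19. Whether the gap differed between classes was not tested. For WT replicate 1 peaks the intervals of chromosome 19 and the other autosomes met in all 3 classes. At a height of 12 or more 29 of 31 chromosome 19 peaks (93.5%) were found in WT replicate 2, against 90.5% of 823 elsewhere. Chromosome 19 had the lower share under 10 (46.6% against 47.8%) and from 10 to 12 (68.4% against 77.1%).

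**Figure D3:**
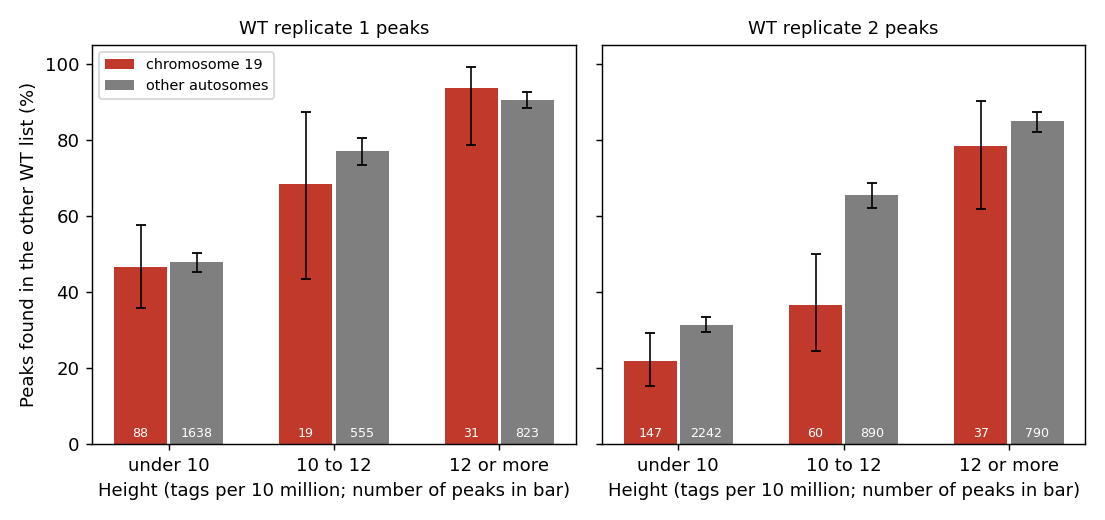
Share of peaks found in the other WT list, by height class, for peaks of WT replicate 1 (left) and WT replicate 2 (right), on chromosome 19 (red) and the other autosomes (grey), with exact 95% intervals and the number of peaks in each bar. The red bar falls furthest below the grey one for WT replicate 2 peaks of 10 to 12 tags per 10000000, at 36.7% against 65.4%.

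Within chromosome 19, sharing did not separate the zinc finger stretches from the rest. In the stretches 6 of 25 sites were in both lists, 24% (9.36 to 45.1%), and elsewhere 77 of 274, 28.1% (22.9 to 33.8%). The difference was -4.10 points with an interval of -17.8 to 16, so a difference of either sign was not detectable with 25 sites. Among bands with more than 5 sites the share ran from 16.7% in p13.12 and in q13.2 to 83.3% in q13.31. In q13.31 5 of 6 sites were in both lists (35.9 to 99.6%), and the band had 6 and 5 peaks in WT replicates 1 and 2. All of them lay between 44 and 45 Mb, with heights up to 14.1 and 13.7 at 44686308 to 44686662. In p13.3, 23 of 80 sites were in both lists, 28.8% (19.2 to 39.95%), with 34 and 69 peaks in WT replicates 1 and 2.

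Median peak heights on chromosome 19 were close to those elsewhere. Only called peaks have a height, and the medians lie near the calling thresholds of 8.38 and 7.51, which may limit how far they can differ. Some deposited heights fell below these thresholds, so they are not a strict floor for the height. The median height was 9.43 in WT replicate 1 and 9.28 in WT replicate 2, and on the other autosomes it was 9.95 and 9.28. The log2 ratio of the medians was -0.04 ± 0.05 (SD, n = 2), within the spread between libraries. Heights of the kept sites on chromosome 19 ran from 7.33 to 22.5 in WT replicate 1 and from 6.18 to 19 in WT replicate 2. The kept sites of the other autosomes reached 41.4 and 45.1. Input tags chose the sites, so they are given only as a description. No input tag, which the caller writes as 0.5, was counted at 18.1% of the kept chromosome 19 sites and at 19.8% of those kept on the other autosomes. At the limit of 3 tags stood 35 sites, 11.7% of chromosome 19, and the 2 sites just outside it had 4 and 11 input tags.

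In the zinc finger stretches the median height was 9.43 in WT replicate 1 and 8.39 in WT replicate 2, against 9.43 and 9.28 in the rest of chromosome 19. The log2 ratio was 0 in the first library and -0.15 in the second, a mean of -0.07 ± 0.10 (SD, n = 2), within the spread between libraries. The tallest site of the whole chromosome lay in the first stretch but was outside the limit on input. It was at 24185297 to 24185617, in both lists, with heights of 37.7 and 34.0, 11 input tags and folds over input of 4.73 and 4.26. The other site left out, at 15560683 to 15561003, was in WT replicate 2 alone with a height of 25.2 and 4 input tags. Both removed sites were thus taller than every site that was kept.

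Among the 83 sites in both lists, heights in the 2 libraries were related, with a Pearson's r of the log2 heights of 0.59 and a Spearman's rho of 0.63. The other autosomes gave 0.48 and 0.40 over 1956 sites. All sites share the 2 libraries, so these are descriptions without a p. The median log2 difference of WT replicate 2 from WT replicate 1 was 0.02 with an SD over sites of 0.30, and 43 of the 83 sites were higher in WT replicate 2.

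Among the kept sites in both lists, the tallest by mean height was at 921280 to 921600 in p13.3. Its height was 22.5 tags per 10000000 in WT replicate 1 and 13.3 in WT replicate 2. The site stood 31.1 and 18.3 times above input. Its rank came from WT replicate 1, where it was the highest of the kept sites on the chromosome. The second, at 56051127 to 56051481 in q13.42, had heights of 14.7 and 19, with 3 input tags in each list and folds of only 6.74 and 8.73. It is also the tallest kept site of the zinc finger stretches, and lies just inside the border of the third stretch. Other p13.3 sites among the 10 tallest were 2575503 to 2575863 (heights 14.1 and 18.6), 409057 to 409378 (13.1 and 19) and 3808034 to 3808354 (15.7 and 15.0). Thus 4 of the 10 tallest sites, like 23 of the 83 shared sites, were in p13.3.

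The remaining 5 of these 10 were spread over both arms. The site at 45844642 to 45845004 in q13.32 had heights of 17.3 and 14.1. That at 24526022 to 24526344 in p11, beside the centromere, had 13.6 and 16.8. No input tag was counted there, so its folds of 37.6 and 46.3 were set against the floor of 0.5 tags and are not exact. The site at 33934705 to 33935027 in q13.11 had heights of 16.2 and 13.3 and focus ratios of 0.971 and 0.947, the highest of these 10 in each library. A high focus ratio means that tags lay on the side of the peak centre that their strand predicts. The last 2 were at 18111263 to 18111650 in p13.11 (13.6 and 15.5) and at 32860837 to 32861229 in q13.11 (13.1 and 15.9), with folds over input between 6.26 and 9.03.

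**Figure D4:**
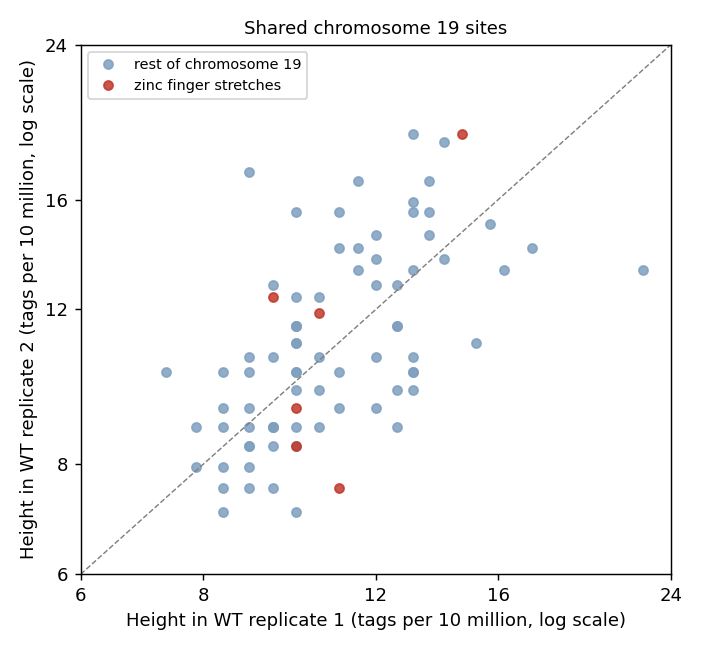
Height of each of the 83 chromosome 19 sites found in both WT lists, in WT replicate 1 (horizontal) against WT replicate 2 (vertical), both on log axes in tags per 10000000, with the line of equal heights. The 6 sites of the zinc finger stretches (red) lie among the others, the tallest at 14.7 and 19, and the point furthest right is the p13.3 site with 22.5 and 13.3.

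In the zinc finger stretches, the 2 tallest shared sites of the first stretch were at 22444379 to 22444733 (heights 9.43 and 12.4) and at 23317077 to 23317398 (9.95 and 9.28), both with 2 input tags. After the site at 56051127, the tallest shared site of the third stretch was at 57698638 to 57699072 in q13.43, with heights of 10.5 and 11.9. The second stretch had no shared site. Its 4 peaks, at 52642075 and 53635003 in WT replicate 2 and at 52840545 and 53150801 in WT replicate 1 by their starts, had heights of 7.51, 7.07, 7.86 and 7.86. All 4 were below the chromosome's median height in their library.

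Some tall peaks were in 1 list alone. In WT replicate 2 these were at 41036197 to 41036517 (height 16.8), 1141998 to 1142318 (16.3) and 1407162 to 1407482 (15.9). In WT replicate 1 the tallest were at 33622748 to 33623064 and 51823140 to 51823456, with a height of 14.7 each. No height in the other library is given for these sites in its list, so how far they fell short there was not measured.

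The focus ratio was lower on chromosome 19 than on the other autosomes. It is a fraction from 0 to 1 that the authors' caller gives each peak, and it falls where tags on the 2 strands do not flank 1 centre. The median was 0.777 in WT replicate 1 and 0.760 in WT replicate 2, against 0.824 and 0.817 on the other autosomes. The differences were -0.0475 and -0.0575, a mean of -0.0525 ± 0.00707 (SD, n = 2), larger than the spread between the 2 libraries. The order over autosomes was not the same in both libraries. Only chromosome 22 was lower in WT replicate 1 (0.737) and only chromosome 21 in WT replicate 2 (0.750).

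The lower focus ratio was present in each height class and each class of sharing. In WT replicate 2 the medians on chromosome 19 and elsewhere were 0.731 and 0.773 under a height of 10, 0.790 and 0.857 from 10 to 12, and 0.826 and 0.875 at 12 or more. In WT replicate 1 they were 0.750 and 0.773, 0.733 and 0.846, and 0.824 and 0.875. Sites in both lists had medians of 0.800 and 0.812 in the 2 libraries on chromosome 19, against 0.853 and 0.857 elsewhere. Sites of WT replicate 1 alone had 0.737 on chromosome 19 and 0.750 elsewhere, and sites of WT replicate 2 alone had 0.739 and 0.759. Enrichment over the surrounding 10 kb was lower as well, with median folds of 5.68 and 6.09 on chromosome 19 and 7.85 and 7.25 elsewhere. The median fold over input was 11.6 on chromosome 19 and elsewhere in WT replicate 1, and 10.4 against 11 in WT replicate 2. Whether the local tags set the focus ratio was not tested.

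**Figure D5:**
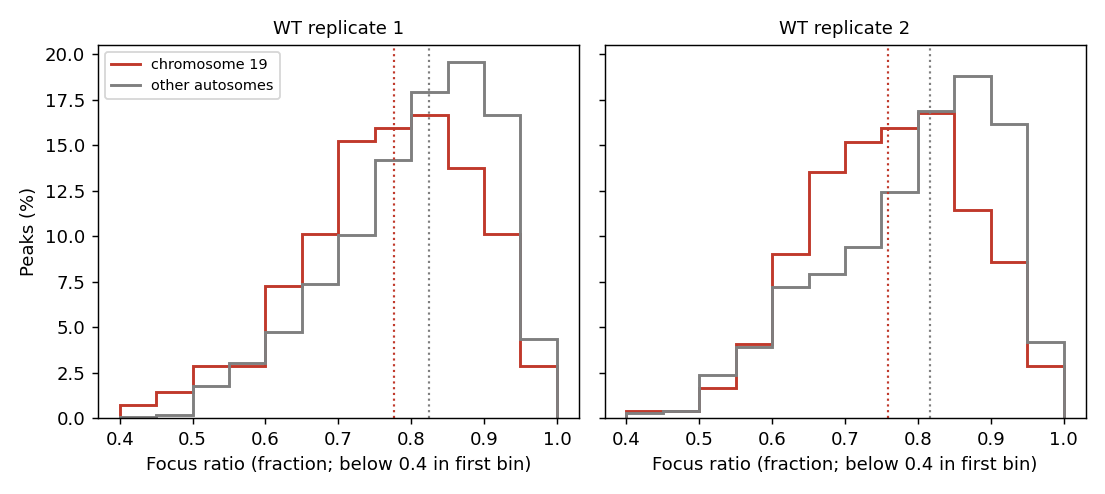
Share of peaks (vertical axis, %) by focus ratio (horizontal axis, bins of 0.05) in WT replicate 1 (left) and WT replicate 2 (right), on chromosome 19 (red) and the other autosomes (grey), with dotted lines at the medians. In both libraries the red distribution lies to the left, with medians of 0.777 against 0.824 and 0.760 against 0.817.

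Inside the zinc finger stretches the focus ratio was nearer to that of the other autosomes. The medians were 0.818 in WT replicate 1 and 0.825 in WT replicate 2, over 13 and 18 peaks, and 0.769 and 0.758 over 125 and 226 peaks in the rest of chromosome 19. The differences were 0.0490 and 0.0675, a mean of 0.0583 ± 0.0131 (SD, n = 2). The stretches did not share this evenly. Each stretch had a median above that of the rest of chromosome 19 in 1 library and below it in the other. In WT replicate 2 the medians were 0.846 in the first stretch, 0.726 in the second and 0.720 in the third, and in WT replicate 1 they were 0.752, 0.856 and 0.794, so no stretch was highest in both libraries. Among peaks with a height of 10 or more the difference from the rest of the chromosome was 0.0138.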

How the data were processed

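The submitters' processing notes name the build hg19 and the tools HOMER 4.10, BWA 0.7.17 and Picard. Peaks were called by HOMER findPeaks in each library separately, against 1 input directory whose name carries 2 day labels, at a false discovery rate of 0.001, and at a minimum fold of 4 over input and over the local 10000 bp, per the file headers. Peak windows spanned 317 bp (WT replicate 1), 321 bp (WT replicate 2), 179 bp (KO replicate 1) and 186 bp (KO replicate 2). Unequal depth, windows and thresholds change how many peaks pass. The deposited height is a signal in tags per 10000000 tags. The deposited focus ratio is a fraction, and the folds over input and local tags are the authors' linear ratios. The deposited unadjusted p-values were not used.

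Sites joined peaks overlapping by at least 1 bp. Sites were placed by their midpoint. Band and chromosome limits came from the hg19 tables installed with circlize and GenomeInfoDb. Density ratios have exact conditional intervals, and differences of shares Newcombe intervals, at 95%. No p was computed over sites. Merging and intervals were tested on simulated data. The sites named are the 10 tallest shared sites, the 2 tallest shared sites of each stretch and the fullest bins; others were chosen after their values were seen. Members, stretches and comparisons were chosen with earlier results of these data known. Tools were scipy 1.17.1, statsmodels 0.14.6, pandas 2.3.3 and numpy 2.4.6 under Python 3.11.15, with matplotlib 3.10.9 for figures.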

Additional observations from a re-analysis of the deposited data

How the results depend on the processing

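The comparisons of sharing, height and focus ratio between chromosome 19 and the other autosomes, and the results without p13.3, were added after seeing the data. The density ratio of chromosome 19 to the other autosomes ranged from 2.16 to 3.03 over 9 alternatives, the lowest being without WT replicate 2 (2.16 and 2.96 without WT replicates 2 and 1). The ratio of the zinc finger stretches to the rest of chromosome 19 was below 1 under 11 alternatives, but it moved from 0.465 to 0.629 with 1 or fewer input tags, where the interval (0.368 to 1.02) includes 1. It was 0.286 among peaks with a height of 10 or more, 0.662 with borders moved outward and 0.565 without p13.3. Leaving out each library gave 0.406 to 0.530. The difference in focus ratio between the stretches and the rest was 0.0138 at heights of 10 or more and 0.0758 with borders moved inward. The lower focus ratio of chromosome 19 was -0.0685 at heights of 10 or more. The difference in sharing from the other autosomes was -14.7 to -9.93 points over 6 alternatives, and that of the stretches -6.94 to 7.42 points over 8. The mean difference in peak number between WT and KO was 73.5 to 244 under 7 alternatives, and with the replicate number as a block it was 191, with an exact sign-flip p of 0.5, the smallest that 2 pairs can give; the labels give no reason to pair these libraries beyond a shared number. The zinc finger results rest on 25 sites, which sets the width of their intervals, and no alternative varied the depth of a library.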
